A study of Homo sapiens with 6 samples.

Results

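The genes described here are 39 DNA replication and S-phase genes, measured by RNA-seq in the established cell line THP-1, which derives from a human monocytic leukaemia. Cultures received recombinant human interleukin-6 (IL-6) or were controls labelled ctrl, and RNA was taken at 6, 24 and 48 h, giving 1 library for each of the 6 combinations. The series asks how IL-6 changes expression in this line, beside work on monocytes of the lung in chronic obstructive pulmonary disease that carry the receptor for IL-6. The dose of IL-6 and what the controls were given are not stated in the sources used here, and both arms were the same line with no genetic change named in the labels. Members were chosen by gene name from a list, and all 39 had a value in each of the 6 libraries, out of 17388 genes that did. All 39 also passed the filter on low levels, as did 13579 of those 17388 genes.

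DNA replication is prepared in G1, when the origin recognition complex, CDC6 and CDT1 load the ring-shaped MCM2 to MCM7 helicase onto DNA. At the start of S phase, CDC45 and the GINS complex join the ring and switch the helicase on, and polymerases, the PCNA sliding clamp and its RFC loader copy both strands. E2F transcription factors, released from the retinoblastoma protein by cyclin-dependent kinases, switch on many of these genes at the G1/S boundary. Growing leukaemia lines such as THP-1 cycle continuously in culture, so these transcripts are present throughout. RNA from whole cultures gives an average, in which fewer cells in S phase and less transcript per cell cannot be told apart.

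The promoters shown belong to E2F1, CDC6, CDC45, PCNA and RFC2, the 5 members whose fall between 6 and 24 h passed the test described below. Each is the RefSeq window (GRCh38.p14) from 250 bases before to 50 bases after the start of the gene, written 5′ to 3′ on the gene's strand. Capitals mark E2F-type letters, TTTGGCGC, TTTCCCGC or GGCGGGA on either strand. The letters of TTTCCCGC and GGCGGGA can overlap each other, as they do in PCNA.
E2F1: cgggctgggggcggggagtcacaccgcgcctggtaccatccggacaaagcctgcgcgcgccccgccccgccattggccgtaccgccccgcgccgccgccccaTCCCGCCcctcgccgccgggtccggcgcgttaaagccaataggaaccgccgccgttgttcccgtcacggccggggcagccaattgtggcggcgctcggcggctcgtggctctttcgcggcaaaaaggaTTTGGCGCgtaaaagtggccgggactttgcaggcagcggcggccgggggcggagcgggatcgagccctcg
CDC6: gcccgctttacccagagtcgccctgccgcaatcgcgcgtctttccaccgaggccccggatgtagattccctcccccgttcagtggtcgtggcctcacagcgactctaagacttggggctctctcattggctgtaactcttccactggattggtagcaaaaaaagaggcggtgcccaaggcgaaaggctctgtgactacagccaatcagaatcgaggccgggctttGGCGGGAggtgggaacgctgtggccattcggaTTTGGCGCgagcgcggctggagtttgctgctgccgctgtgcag
CDC45: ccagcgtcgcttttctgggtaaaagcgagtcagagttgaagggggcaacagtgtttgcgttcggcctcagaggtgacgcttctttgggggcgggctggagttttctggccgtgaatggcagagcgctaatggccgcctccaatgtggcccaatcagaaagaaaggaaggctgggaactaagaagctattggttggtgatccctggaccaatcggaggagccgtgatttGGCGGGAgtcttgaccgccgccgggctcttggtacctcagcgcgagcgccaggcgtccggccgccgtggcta
PCNA: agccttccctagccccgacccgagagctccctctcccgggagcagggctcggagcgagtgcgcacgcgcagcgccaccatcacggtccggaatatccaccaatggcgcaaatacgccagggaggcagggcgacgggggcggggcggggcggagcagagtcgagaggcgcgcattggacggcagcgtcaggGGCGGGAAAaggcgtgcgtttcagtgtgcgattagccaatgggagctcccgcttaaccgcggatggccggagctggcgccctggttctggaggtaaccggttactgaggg
RFC2: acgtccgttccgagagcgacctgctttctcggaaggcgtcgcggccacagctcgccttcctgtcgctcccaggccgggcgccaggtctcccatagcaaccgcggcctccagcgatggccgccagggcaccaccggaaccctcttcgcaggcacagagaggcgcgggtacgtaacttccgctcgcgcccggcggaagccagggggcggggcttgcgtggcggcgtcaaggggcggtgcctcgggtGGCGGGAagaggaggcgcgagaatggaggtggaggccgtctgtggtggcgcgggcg
The windows lie at chr20:33686336-33686635 (minus strand) for E2F1, chr17:40287629-40287928 (plus strand) for CDC6, chr22:19479670-19479969 (plus strand) for CDC45, chr20:5126573-5126872 (minus strand) for PCNA and chr7:74254350-74254649 (minus strand) for RFC2. All 5 hold E2F-type letters, and in each at least 1 match lies close to the start: at bases -20 to -13 in E2F1, -25 to -19 in CDC6, -22 to -16 in CDC45, -60 to -54 in PCNA and from -6 to 1 in RFC2. The further matches are at 8 to 15 in CDC6, at -148 to -142 on the other strand in E2F1 and at -59 to -52 on the other strand in PCNA. The RefSeq starts of CDC45, PCNA and RFC2 lie inside the spans given below for these genes, so base positions count from the RefSeq start. A window was found for 34 of the 39 members, and 26 of these 34 (76.5%) held E2F-type letters. The share was 27.4% among the 9787 tested genes with a window and 16.6% among all 27305 windows. By string, GGCGGGA was in 50% of member windows and 25.5% of tested genes. TTTGGCGC was in 23.5% and 1.18%, and TTTCCCGC in 29.4% and 2.7%. Among the 5 windows shown, those of CDC45 and RFC2 held only GGCGGGA, the most common of these strings. CCAAT, a short element common in cell-cycle promoters and searched on both strands, was in 18 of the 34 windows (52.9%), against 37.3% of tested genes and 35.7% of all windows. Both kinds of letters occurred together in 15 of the 34 (44.1%), against 10.6% of tested genes and 5.77% of all windows. The member windows also held more G and C, with a median of 67.5%, against 65.0% for tested genes and 58.3% for all windows. FEN1, ORC1, ORC6, POLA2, POLD1, RRM2, SLBP and TK1 had windows without E2F-type letters. These matches are letters only, and binding was not measured.

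The tables hold log2 values that average 0 over the 6 libraries for each gene, so they show differences between libraries and not levels. The IL-6 libraries listed 22333, 22733 and 22209 genes at 6, 24 and 48 h, and the control libraries listed 22000, 23108 and 22472. The median over all genes tested was -0.04, 0.01 and -0.003 in the IL-6 libraries at 6, 24 and 48 h, and -0.05, 0.09 and 0.04 in the controls. Giving all libraries the same median moved the all-gene difference between 24 and 6 h to 0.01, from 0.11 as deposited. Counts under that scaling are given below for some comparisons only. All 15 myeloid markers had values in each library. Of the markers of other cells, values in all 6 libraries were found for 2 of 10 of T and NK cells, 4 of 6 of B cells, 1 of 8 of erythroid cells and platelets and 2 of 9 of epithelial cells and fibroblasts. No value in any library was found for 4 T and NK cell markers, CD3E among them, and for 1 B cell marker, MS4A1. The same held for 6 markers of erythroid cells and platelets, HBB among them, and 3 of epithelial cells and fibroblasts, CDH1 among them.

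The median replication gene stood high at 6 h, low at 24 h and in between at 48 h in both arms, though single members differed in this order, as given below. The median member was at 0.24, -0.19 and -0.05 in IL-6 cultures at 6, 24 and 48 h, and at 0.25, -0.28 and 0.00 in control cultures. In IL-6 cultures 38, 3 and 14 of the 39 members were above their own mean at 6, 24 and 48 h, and in control cultures 37, 2 and 22 were. Of all 13579 genes tested, 6017, 7107 and 6730 were above theirs with IL-6, and 5710, 8642 and 7577 in controls. The members not above their mean at 6 h were POLE in the IL-6 arm, and POLA2 and RFC4 in the control arm. The members above their mean at 24 h were ORC6, GINS4 and POLE with IL-6, and LIG1 and UHRF1 in the control.

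**Figure D1:**
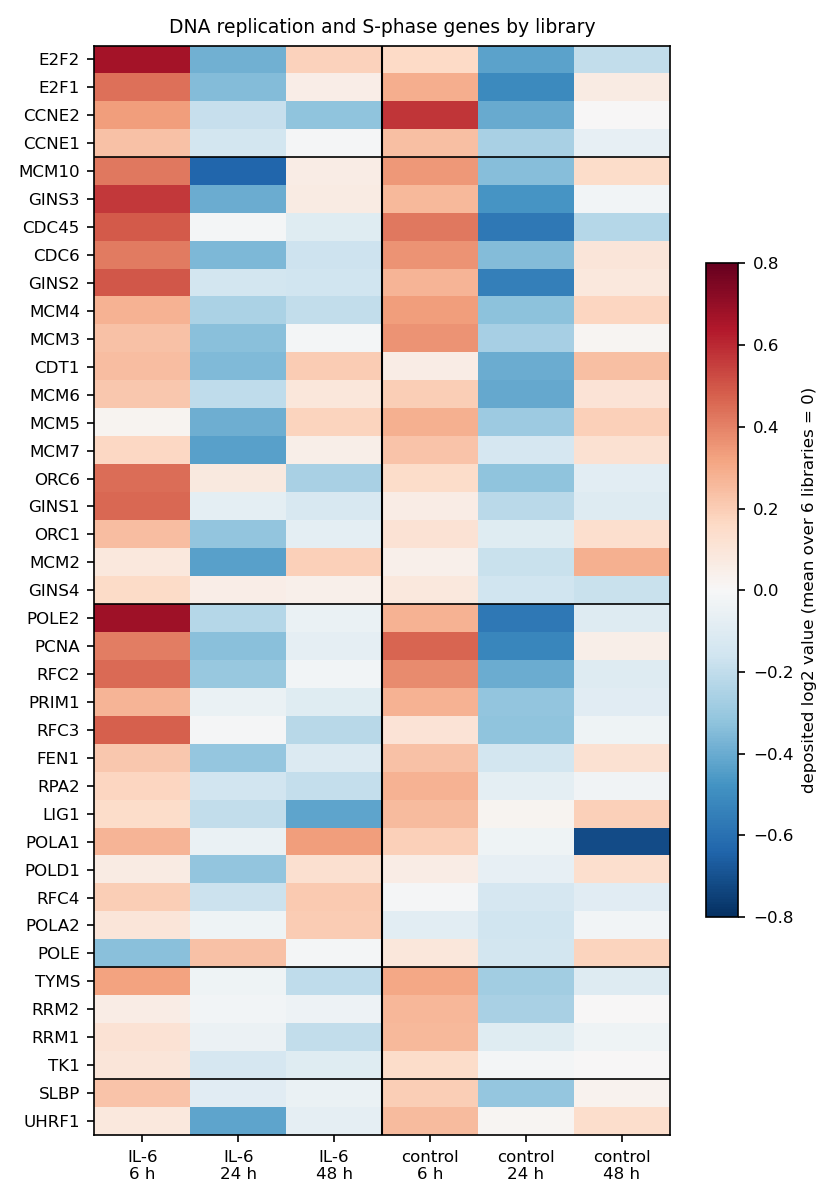
Deposited log2 values (colour, centred on each gene) of the 39 genes (rows) in the 6 libraries (columns), IL-6 left of the line and control right of it, with rows grouped by role and ordered by the difference between 24 and 6 h. The 6 h columns are mostly red and the 24 h columns mostly blue in both arms, and POLA1 in the control library of 48 h (-0.72) and POLE in the IL-6 library of 6 h (-0.33) stand apart from the other members.

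Between 6 and 24 h, transcripts of the G1/S regulator E2F1, the helicase loaders and activators CDC6 and CDC45, the clamp PCNA and the clamp-loader subunit RFC2 fell in both arms. The estimate over both arms was below 0 for 38 of 39 members, against 38.1% of all genes tested, with a median of -0.46 for members and 0.11 for all genes. It came from limma's moderated test with time and agent as terms, with Benjamini-Hochberg adjustment over all 13579 genes. With limma, 5 members were lower past the threshold of 0.05, against 0.228% of all genes tested, 27 were lower at an unadjusted p under 0.05 (4.79% of all genes tested) and none was higher (12.4%). Both 24 h libraries lay below both 6 h libraries for 37 of the 39 members, against 15.7% of all genes tested. The 2 exceptions were POLE and POLA2.

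E2F1, an activator of the G1/S programme on the minus strand of chromosome 20 (33675477 to 33686385, GRCh38), had log2 values of 0.44, -0.34 and 0.06 with IL-6 at 6, 24 and 48 h, against 0.29, -0.51 and 0.07 in controls. Its estimate for 24 h minus 6 h was -0.79 ± 0.15 (SE, limma adjusted p = 0.0343), or 0.578 of the 6 h level. CDC6, which loads the MCM ring (chromosome 17, 40287879 to 40304657, plus strand), had 0.41, -0.36 and -0.16 with IL-6, against 0.36, -0.35 and 0.10 in controls. The same difference was -0.74 ± 0.15 (limma adjusted p = 0.0405). In both genes the 2 libraries of 24 h were the lowest of the 6, whichever arm they came from.

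CDC45, the helicase activator (chromosome 22, 19479457 to 19520612, plus strand), was at 0.49, -0.01 and -0.10 with IL-6, against 0.42, -0.57 and -0.23 in controls. Its difference between 24 and 6 h was -0.75 ± 0.16 (limma adjusted p = 0.0492), close to the threshold, and the drop was -0.51 with IL-6 and -0.99 in controls. Unlike E2F1, CDC45 had its lowest IL-6 value at 48 h.

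PCNA, the sliding clamp (chromosome 20, 5114953 to 5126626, minus strand), had 0.41, -0.33 and -0.07 with IL-6, against 0.47, -0.52 and 0.05 in controls. Its log2 difference was -0.87 ± 0.15 (limma adjusted p = 0.0206), which is 0.549 of the 6 h level. RFC2, a subunit of the clamp loader (chromosome 7, 74231499 to 74254458, minus strand), had 0.45, -0.30 and -0.02 with IL-6, against 0.38, -0.40 and -0.11 in controls, and its difference was -0.76 ± 0.12 (limma adjusted p = 0.0180). The drop in RFC2 was nearly the same size in each arm, -0.75 with IL-6 and -0.77 in controls. No level was recovered for RFC2, so it was treated as high in the variance trend, on which its SE partly rests. The 5 calls depended on how the spread was estimated and on single libraries. With limma, 0 members were called without a variance trend or with non-robust shrinkage. Without a level filter 2 were called (PCNA and RFC2), and with a mean level of at least 5 it was 10. The share of all genes called was not taken under these settings or those that follow, so the counts cannot be set against it. None was called when any single library of 6 or 24 h was left out, of either arm, and 11 were called without either 48 h library, while the estimates of all 5 genes stayed below 0 in each of these settings.

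Other genes had estimates as large but wider errors. POLE2, the accessory subunit of polymerase epsilon, was at 0.68, -0.23 and -0.05 with IL-6, against 0.28, -0.57 and -0.10 in controls. Its 24 h minus 6 h difference was -0.87 ± 0.20 (limma adjusted p = 0.0656). E2F2, a second activating E2F, whose recovered level was too low for the stricter filter of 5, had 0.66, -0.38 and 0.18 with IL-6, against 0.16, -0.43 and -0.19 in controls, and -0.82 ± 0.36 for the same difference (limma adjusted p = 0.280). CCNE2, a cyclin E that activates CDK2, had 0.34, -0.19 and -0.32 with IL-6, against 0.57, -0.40 and 0.00 in controls, and -0.75 ± 0.17 (limma adjusted p = 0.0661). Its sister CCNE1 moved less, with 0.24, -0.15 and -0.01 with IL-6 against 0.24, -0.26 and -0.07 in controls. These members were lower at 24 h in each arm without passing the test. The exons of CCNE2 overlap those of INTS8 on the other strand, and the library kit does not mark strand.

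By role, the median difference between 24 and 6 h was -0.77 over the 4 G1/S regulators, -0.52 over the 16 genes of the MCM helicase and its loading, -0.34 over the 13 polymerase, clamp and ligation genes and -0.28 over the 4 genes of nucleotide supply. The 2 remaining members, SLBP and UHRF1, had a median of -0.39. The 6 MCM2 to MCM7 subunits, which form 1 ring, lay close together, between -0.60 for MCM4 and -0.37 for MCM2. The 4 GINS subunits, which also form 1 complex, spread from -0.85 for GINS3 to -0.17 for GINS4. The GINS estimates had wider errors, with an SE of 0.136 to 0.216, against 0.125 to 0.145 for MCM2 to MCM7. Whether the 2 spreads differ was not tested. MCM10, another helicase factor, had -0.87 ± 0.20 (limma adjusted p = 0.0699).

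Ribonucleotide reductase (RRM1 and RRM2), thymidylate synthase (TYMS) and thymidine kinase (TK1), which make DNA precursors, had differences between 24 and 6 h from -0.47 for TYMS to -0.20 for TK1. TYMS was at 0.32, -0.04 and -0.20 with IL-6, against 0.31, -0.28 and -0.11 in controls, and TK1 was at 0.10, -0.13 and -0.10 with IL-6, against 0.15, -0.02 and 0.00 in controls. RRM1, the large reductase subunit, had 0.11, -0.05 and -0.20 with IL-6, against 0.26, -0.10 and -0.03 in controls. TYMS shares exon sequence with ENOSF1 and RRM1 with RRM1-AS1, each on the other strand. In IL-6 cultures TYMS and RRM1 were lowest at 48 h, whereas TK1 was lowest at 24 h.

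POLE, the catalytic subunit of polymerase epsilon, was the exception among the 39. It was at -0.33, 0.23 and -0.02 with IL-6, against 0.09, -0.14 and 0.18 in controls, so the arms moved in opposite directions between 6 and 24 h. Its difference over both arms was 0.17 ± 0.25 (limma adjusted p = 0.779), and it was -0.09 without the IL-6 library of 6 h and -0.18 without the IL-6 library of 24 h. The IL-6 difference of POLE at 24 h stood 0.69 ± 0.38 above its mean at the other times (limma adjusted p = 0.984). Its partner POLE2 was lower at 24 than at 6 h in both arms.

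Between 24 and 48 h the direction turned for most members, but no single gene passed the test. The estimate was above 0 for 34 of 39 members, against 46.0% of all genes tested, with a median of 0.24 for members and -0.03 for all genes. With limma, 0 members passed the threshold in either direction, against 0.442% of all genes tested, and 11 were higher at an unadjusted p under 0.05 (3.95% of all genes tested). Both 48 h libraries lay above both 24 h libraries for 22 members, also against 15.7% of all genes tested. The MCM2 to MCM7 subunits had differences from 0.28 (MCM4) to 0.54 (MCM2), and the highest of all members was CDT1, the MCM loading factor, with 0.60 ± 0.14 (limma adjusted p = 0.130). The 4 nucleotide supply genes lay between -0.04 and 0.12. ORC6, GINS4, POLA1, RRM1 and LIG1 were the members with a value below 0.

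At 48 h most members were still below their 6 h values. The estimate of 48 h minus 6 h was below 0 for 33 of 39, against 42.9% of all genes tested, with a median of -0.30 for members and 0.07 for all genes. With limma, 0 members passed the threshold, against 3.56% of all genes tested in either direction, and 14 were lower at an unadjusted p under 0.05 (8.18% of all genes tested). CDC45 had the lowest estimate, -0.62 ± 0.16 (limma adjusted p = 0.0631). MCM2, a subunit of the ring, was at 0.09, -0.43 and 0.19 with IL-6, against 0.04, -0.18 and 0.29 in controls, and its estimate of 0.17 was among the 6 above 0, with those of MCM5, CDT1, POLA2, POLD1 and POLE. MCM2 shares exon sequence with TPRA1 on the other strand. MCM7 had 0.17, -0.43 and 0.05 with IL-6, against 0.23, -0.13 and 0.12 in controls, and overlaps AP4M1 on the other strand. Both MCM subunits were lowest at 24 h in each arm.

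**Figure D2:**
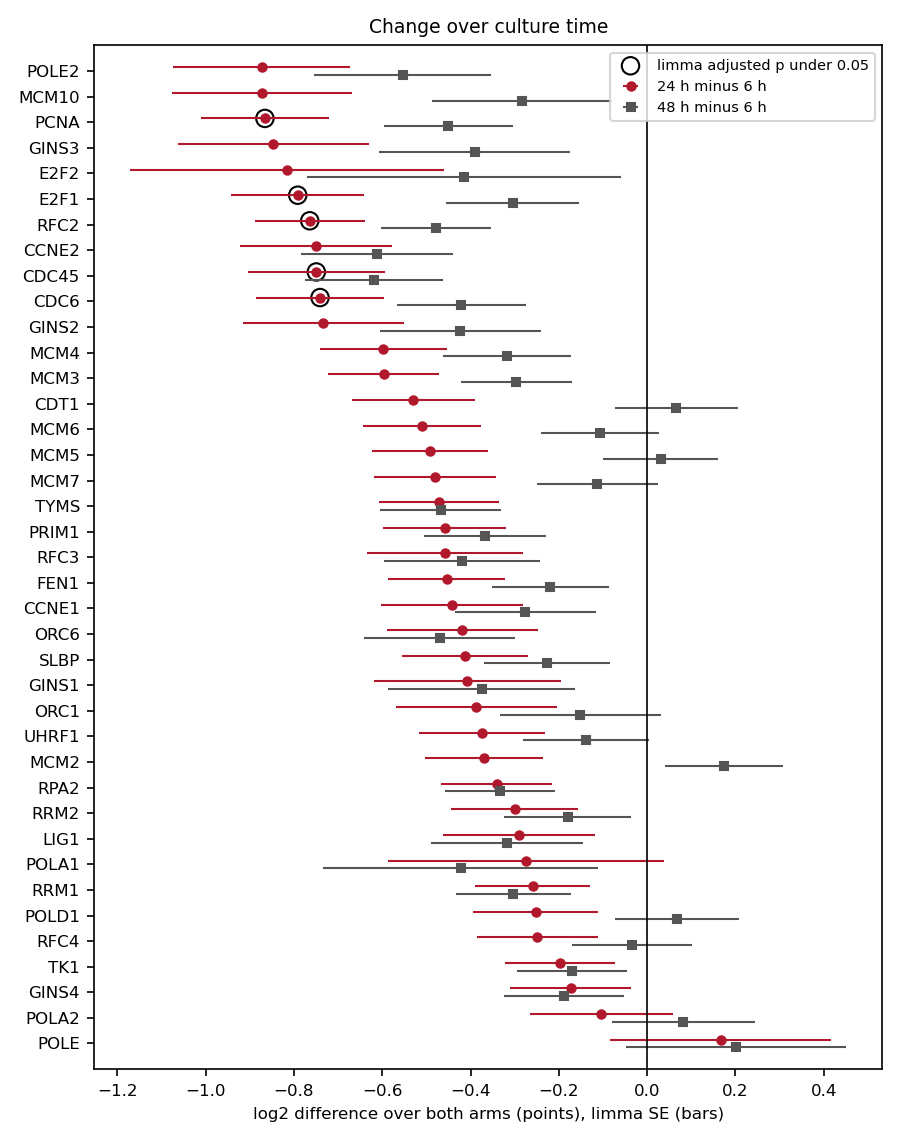
Estimated log2 difference over both arms (x axis, bars are the limma SE) for the 39 genes (rows): red circles are 24 h minus 6 h, grey squares 48 h minus 6 h, and black rings mark an adjusted p under 0.05. All but POLE lie left of 0 at 24 h, 5 are ringed, and 33 of the squares are left of 0.

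Each arm gave the drop by itself, without a test, since each was then a difference of 2 libraries. In IL-6 cultures 38 of 39 members were lower at 24 than at 6 h (median -0.51), and 11 were at least 1.5-fold lower, against 8.15% of all genes tested. In controls all 39 were lower (median -0.50), and 15 were at least 1.5-fold lower, against 5.77%. Of all 13579 genes tested, 6047 were lower at 24 than at 6 h with IL-6 and 4878 in controls. The IL-6 arm had its largest differences in MCM10 and E2F2, both -1.05, and the control arm in CDC45 and PCNA, both -0.99. With equal library medians the counts were 16 with IL-6, against 9.71% of all genes tested, and 22 in controls, against 9.07%.

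The later step gave other counts in the 2 arms. From 24 to 48 h, 25 of 39 members were higher with IL-6 (median 0.20) and 37 of 39 in controls (median 0.27). Of all 13579 genes tested, 6782 were higher with IL-6 and 5906 in controls. A 1.5-fold difference upward was reached by 2 members with IL-6 (MCM10 and MCM2, against 12.4% of all genes tested) and by 2 in controls (CDT1 and GINS2, against 7.07%). With equal library medians 27 members were higher with IL-6 and 38 in controls, against 6963 and 6859 of all genes tested. A 1.5-fold difference upward was then reached by 3 and 4 members, against 1770 and 1095 of all genes tested. The lowest of the 3 times was 24 h for 25 members with IL-6, where 27.0% of all genes tested had that order, and for 37 in controls, where 22.6% did. It was 24 h in both arms for 24 members, against 8.16% of all genes tested. The values ran down through all 3 times in 13 members with IL-6, against 17.6% of all genes tested, and in 2 in controls, against 13.3%. Whether these counts differ between arms beyond the spread of repeated libraries was not tested, as no condition was repeated.

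Genes of mitosis, a list of 30 set beside the members for comparison, ran the other way over the same libraries. All 30 had a positive 24 h minus 6 h estimate (median 0.78), and 15 of them rose past the limma threshold, against 1.37% of all genes tested in that direction. CCNB1, the mitotic cyclin B1, was at -0.61, 0.79 and 0.02 with IL-6, against -0.84, 0.81 and -0.17 in controls, a difference of 1.52 ± 0.13 (limma adjusted p = 0.00235). From 24 to 48 h all 30 had a negative estimate (median -0.62), and 8 fell past the threshold, against 0.346% of all genes tested. Alternative settings were not examined for the mitotic genes. The median mitotic gene was highest at 24 h in both arms, the time at which the median replication gene was lowest.

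**Figure D3:**
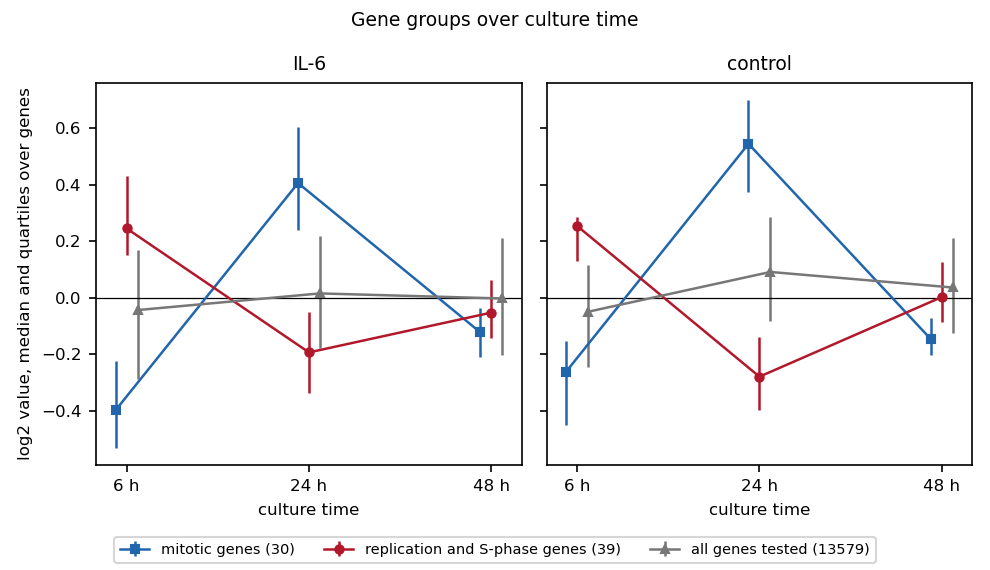
Median log2 value (points) with the quartiles over genes (bars) at 6, 24 and 48 h in IL-6 cultures (left) and controls (right), for 30 mitotic genes, the 39 replication and S-phase genes and all 13579 genes tested. The replication genes are lowest at 24 h (medians -0.19 with IL-6 and -0.28 in controls), where the mitotic genes are highest (0.41 and 0.55), and the median of all genes stays within 0.10 of 0.

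Further genes of the same pathways were mostly lower at 24 h as well. Of 19 other origin and fork genes, 14 had a negative 24 h minus 6 h estimate (median -0.25), and 1 of them, the fork protection gene TIPIN, fell past the threshold. TIPIN was at 0.39, -0.46 and 0.12 with IL-6, against 0.38, -0.47 and 0.03 in controls, a difference of -0.85 ± 0.15 (limma adjusted p = 0.0229). The 15 other polymerase, clamp loader and RPA subunits had a median of -0.32 with 13 negative, the 10 other nucleotide genes -0.24 with 8 negative, and the 16 genes of replication-coupled chromatin and repair -0.39 with 14 negative. None of these passed the limma threshold, though 5, 4 and 9 of them were lower at an unadjusted p under 0.05, where 4.79% of all genes tested were. The 16 other G1/S genes had a median of -0.17 with 11 negative. They include RBL2, a retinoblastoma relative that represses E2F targets, at 0.63 ± 0.17 (limma adjusted p = 0.0981), and the phosphatase gene CDC25A at -0.69 ± 0.24 (limma adjusted p = 0.184).

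From 24 to 48 h these lists were divided in sign: the estimate was positive for 10 of the 19 origin and fork genes, 7 of the 15 polymerase, clamp loader and RPA subunits, 9 of the 16 G1/S genes, 3 of the 10 nucleotide genes and 6 of the 16 chromatin and repair genes. Their medians lay between -0.06 and 0.04. At 48 h, 4 of these further genes were lower than at 6 h past the limma threshold, against 1.21% of all genes tested. Alternative settings were not examined for single genes of these lists. The replication fork gene DONSON had 0.71, 0.18 and -0.52 with IL-6, against 0.40, -0.48 and -0.29 in controls, a difference of -0.96 ± 0.22 (limma adjusted p = 0.0456). The large clamp loader subunit RFC1 had -0.64 ± 0.15 (limma adjusted p = 0.0462), the nucleoside diphosphate kinase NME1 -0.88 ± 0.16 (limma adjusted p = 0.0209) and the exonuclease EXO1 -0.81 ± 0.15 (limma adjusted p = 0.0219). In all 4 the IL-6 values were lower at each later time, as they were in 13 of the members.

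No member passed the test for IL-6 against control. Over the 3 time-matched pairs, 0 members passed the limma threshold, against 0.236% of all genes tested, and 1 did so at an unadjusted p under 0.05, where 8.74% of all genes tested did. The estimates were positive for 21 members and negative for 18, with a median of 0.05 for members and -0.03 for all genes. Among all 13579 genes tested, 5988 estimates were positive and 7591 negative. The member estimates ran from -0.31 for LIG1 to 0.37 for POLA1, and the limma 95% intervals of the 39 members lay within -0.63 and 0.96. The narrow end of that precision was RFC2, at 0.08 with an interval of -0.14 to 0.31. RFC2 had no recovered level, so this width rests partly on an assumed high level. The wide end was E2F2, at 0.31 with an interval of -0.34 to 0.96. Separate cultures for the 3 pairs are not stated in the labels. The error behind the p-values is what the 6 libraries leave over after time and agent are fitted, with 2 residual degrees of freedom. It is shrunk towards the spread of other genes, with a median prior of 7.7. It does not measure the spread between repeated cultures, and the tests between times used the same error.

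UHRF1, which recruits DNA methylation to newly copied DNA, was the member below the unadjusted threshold. It was at 0.09, -0.42 and -0.07 with IL-6, against 0.25, 0.02 and 0.14 in controls, lower with IL-6 at each time, with an estimate of -0.27 ± 0.12 (limma adjusted p = 0.552). LIG1, the ligase that joins Okazaki fragments, was at 0.15, -0.19 and -0.42 with IL-6, against 0.26, 0.02 and 0.19 in controls, with an estimate of -0.31 ± 0.14 (limma adjusted p = 0.574). An antisense gene, AC011466.3, overlaps the exons of LIG1. Both genes were lower with IL-6 at all 3 times, and the gap was widest at 24 h in UHRF1 and at 48 h in LIG1.

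SLBP, which binds the stem-loop of histone mRNAs, differed little between arms: it was at 0.23, -0.09 and -0.05 with IL-6, against 0.20, -0.31 and 0.03 in controls. POLA1, the catalytic subunit of the primase-polymerase, was at 0.27, -0.05 and 0.33 with IL-6, against 0.19, -0.03 and -0.72 in controls. Its IL-6 estimate of 0.37 ± 0.26 (limma adjusted p = 0.747) goes with a difference of 1.05 at 48 h and of 0.08 and -0.02 at 6 and 24 h. Without the control library of 48 h its 48 h minus 6 h estimate was 0.09, against -0.42 with it. The partner subunit POLA2 was at 0.20 with IL-6 and -0.02 in the control at 48 h.

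At single times the differences were small and mixed in sign. IL-6 minus control was positive for 23, 24 and 10 of the 39 members at 6, 24 and 48 h, with medians of 0.03, 0.08 and -0.08. Of all 13579 genes tested, 7105, 5913 and 6091 were positive. The sign counts depended on scaling. With equal library medians they were 22, 29 and 18 of the members and 6995, 6914 and 6742 of all genes tested. At 6 h no member was 1.5-fold apart, against 8.73% of all genes tested lower and 8.69% higher. At 24 h none was either, against 13.0% lower and 8.05% higher, and the nearest was CDC45 with 0.56, which passed 1.5-fold with equal library medians, at 0.63. At 48 h POLA1 was higher by 1.05, against 8.82% of all genes tested higher, and LIG1 had -0.62, against 9.37% lower. With equal library medians LIG1 was no longer 1.5-fold apart, at -0.58.

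CDC45, GINS3, GINS4, E2F2, POLA2, POLE2 and RFC2 were higher with IL-6 at all 3 times, 7 of 39 (12.6% of all genes tested were). MCM3, MCM5, MCM7, RPA2, TK1, FEN1, LIG1 and UHRF1 were lower at all 3 times, 8 of 39 (18.2% of all genes tested). These shares are near those of all genes. Within the subunits of 1 complex the signs were partly shared, as the GINS estimates lay between 0.13 and 0.17 and those of RFC2, RFC3 and RFC4 between 0.08 and 0.16, while 5 of the 6 MCM2 to MCM7 estimates were negative, down to -0.15 for MCM7. None of these 13 estimates passed the limma threshold. At 48 h the GINS differences were positive for 2 subunits and negative for 2. Estimates differed in sign between ORC1 (-0.10) and ORC6 (0.17), and between POLE (-0.08) and POLE2 (0.27). They shared a sign for POLA1 (0.37) and POLA2 (0.18), and for RRM1 (-0.09) and RRM2 (-0.005). Of all genes tested, 5988 estimates were positive and 7591 negative. In nucleotide supply all 4 members were lower with IL-6 at 48 h, by -0.17 for RRM1 at most.

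**Figure D4:**
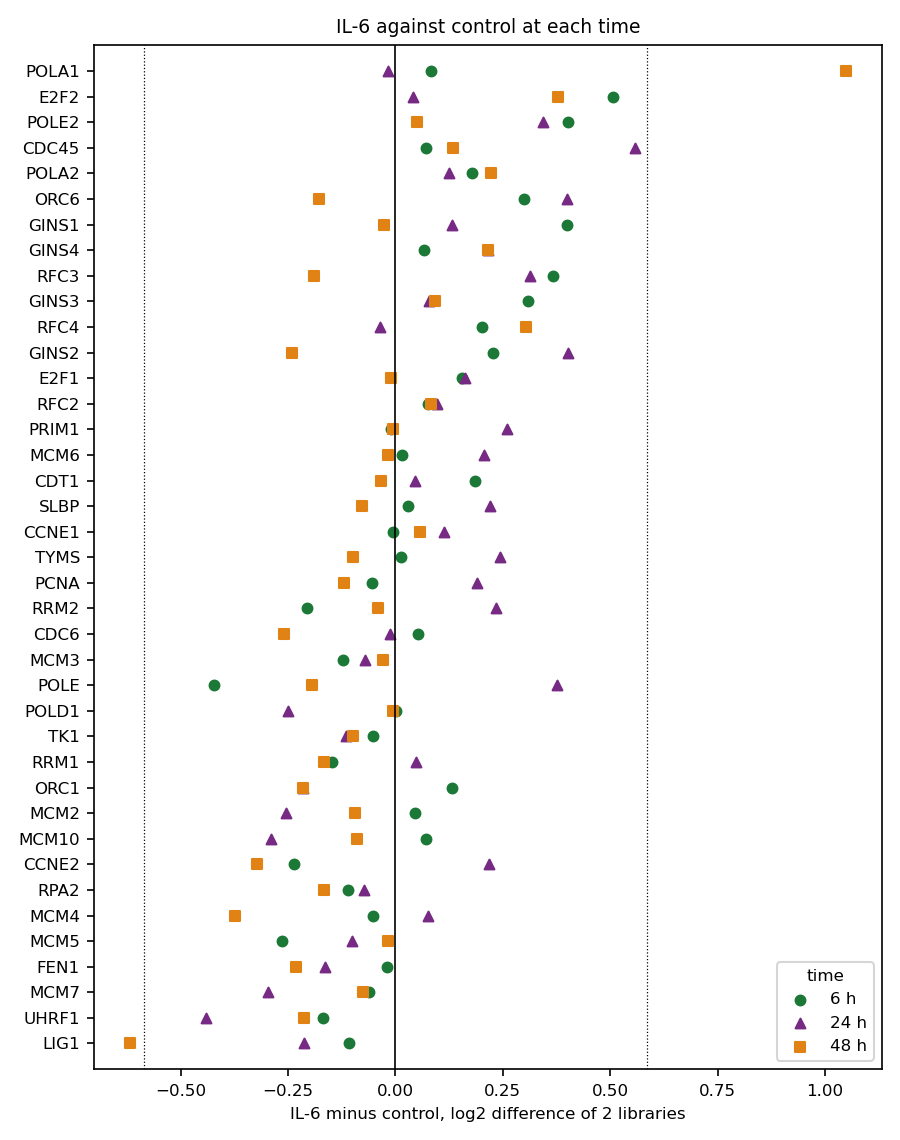
IL-6 minus control (x axis, log2 difference of 2 libraries) at 6 h (circles), 24 h (triangles) and 48 h (squares) for the 39 genes (rows, ordered by the limma estimate over 3 pairs), with dotted lines at 1.5-fold. Only POLA1 (1.05) and LIG1 (-0.62) cross a dotted line, both at 48 h, and most genes have points on both sides of 0.

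The IL-6 difference was also not shown to change with time for any member. When the difference at 1 time was set against its mean at the other times, limma called 0 members for 6 h (0.331% of all genes tested), 0 for 24 h (0.140%) and 0 for 48 h (0.147%). At an unadjusted p under 0.05 these counts were 0, 0 and 1 (3.94%, 4.18% and 7.82% of all genes tested), the last being POLA1 with 1.02 ± 0.44 (limma adjusted p = 0.629). These fits had 1 residual degree of freedom. A difference that failed the test here is not shown to be the same at each time.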

How the data were processed

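THP-1 RNA was amplified with the SMART-seq v4 kit and made into Nextera XT libraries, per the labels' protocols, and neither step marks strand. The genome build was GRCh38, per the submitters' processing notes. The aligner, counter and normalization were not given in the sources used here. The deposited tables give 60325 gene rows with log2 values that the authors centred on each gene, since the mean over libraries is 0 to within 1.8e-07. They hold no counts, so depth is unknown, and no counting error is given.

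A level in an arbitrary unit was recovered for 89.7% of the 17388 genes with 6 values, from whole-number ratios in steps of 0.001. It served to filter genes (mean level of at least 1) and to set the variance trend, and log2(level + 1) was fitted in 1 alternative. Genes without a recovered level were treated as high, except 43 with tied libraries. Among the members 11 had no recovered level, RFC2 included. The values of 13579 genes were fitted with limma 3.58.1 in R 4.3.3 (terms time and agent, robust empirical Bayes, 2 residual degrees of freedom, median prior of 7.7), with Benjamini-Hochberg adjustment and a threshold of 0.05. The scripts were tested on simulated data. Differences of 2 libraries have no test, and 1.5-fold was used as the limit for counting them.

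The members, lists and tests were chosen with earlier results of these data known. Values in every library are given for members past the threshold in any contrast and, in each role group, for those with the highest and lowest estimate for IL-6 and for 48 h minus 6 h. Exon overlaps were taken from GENCODE 29 and were found for 15 members, 14 of them with a gene that has a value. Promoter windows came from RefSeq, the first listed for each gene. Alternatives were the level filter, library scaling, variance trend, shrinkage, a pseudocount of 1 on recovered levels, a model without time and leaving out libraries or pairs.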

Additional observations from a re-analysis of the deposited data

How the results depend on the processing

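The number of members lower at 24 than at 6 h past the limma threshold was 5, and it was 2 with no level filter, 10 with a mean level of at least 5, 0 without a variance trend, 0 with non-robust shrinkage, and between 0 and 11 when 1 library was left out. The number lower at 48 than at 6 h past that threshold was 0, and it was 1 with a mean level of at least 5, 1 with equal library medians, 1 on log2(level + 1), which leaves out the 11 members without a recovered level, and between 0 and 2 with 1 library left out. The cause was not tested. Shares of all genes called by limma were not taken for the alternatives in this section, so these counts cannot be set against them. The count for IL-6 was 0 in each of the 10 alternatives run, leaving out a pair and dropping the time term included.

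With equal library medians the median member estimate was -0.56 for 24 h minus 6 h, -0.37 for 48 h minus 6 h, 0.27 for 48 h minus 24 h and 0.09 for IL-6. The limma count of members lower at 24 than at 6 h was 6 under that scaling. As deposited, the median for IL-6 was -0.01 without the 24 h pair. Alternatives for single genes were examined for members only, and not for mitotic genes or further genes of the same pathways. Those between 24 and 6 h were added after seeing the data. Across these settings the 24 h minus 6 h estimates ran from -1.004 to -0.73 for PCNA, -0.98 to -0.52 for CDC45, -0.89 to -0.75 for E2F1, -0.86 to -0.76 for RFC2 and -0.84 to -0.65 for CDC6.

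Some estimates that passed no test changed sign when a library or pair was left out. The IL-6 estimates ran from -0.136 to 0.020 for CDC6, -0.087 to 0.067 for PCNA, -0.309 to 0.091 for POLE, -0.024 to 0.125 for SLBP and -0.043 to 0.127 for TYMS. For 24 h minus 6 h they ran from -0.565 to 0.017 for POLA1 and -0.177 to 0.509 for POLE, and for 48 h minus 6 h from -0.931 to 0.086 for POLA1 and -0.056 to 0.458 for POLE. The IL-6 test pairs the libraries by time, as a term of the model. The depth in reads is unknown, so the limits of detection cannot be given.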

Other observations

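Among further genes of the same pathways, some at the extremes of their lists differed between arms without passing the test. HELLS, a chromatin remodeller of S phase, was at 0.81, 0.59 and -0.58 with IL-6 at 6, 24 and 48 h, against -0.03, -0.25 and -0.54 in controls. Its IL-6 estimate was 0.55 ± 0.20 (limma adjusted p = 0.451), and the arms lay apart at 6 and 24 h and close together at 48 h. MCM9, a helicase used in repair, was at -0.01, -0.63 and -0.17 with IL-6, against 0.12, 0.47 and 0.22 in controls, an estimate of -0.54 ± 0.23 (limma adjusted p = 0.549). Its gap between arms was widest at 24 h. E2F5, a repressor of the E2F family, was at 0.29, 0.86 and 0.25 with IL-6, against 0.19, -1.16 and -0.44 in controls, an estimate of 0.93 ± 0.42 (limma adjusted p = 0.566). POLD4, a small subunit of polymerase delta, was lower with IL-6 at each time, at -0.18, -0.23 and -0.16 against 0.22, 0.34 and 0.01 in controls, an estimate of -0.38 ± 0.12 (limma adjusted p = 0.384). GMNN, whose protein geminin blocks relicensing of origins by binding CDT1, was at 0.38, 0.22 and -0.21 with IL-6, against 0.25, -0.47 and -0.18 in controls. From 24 to 48 h DBF4, the activator of the CDC7 kinase, had -0.60 ± 0.15 (limma adjusted p = 0.153), where 34 of the 39 replication and S-phase genes described above had a positive estimate.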
